A study of Danio rerio with 2 samples.

Results

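The miR-15/16 and miR-103/miR-107 families were followed in small RNA libraries of zebrafish embryos. They were chosen by name, as every entry of the deposited values called mir-15, mir-16, mir-103 or mir-107, with or without a letter. This gave 9 of 173 entries, 6 of the miR-15/16 family (mir-15a, mir-15b, mir-15c, mir-16a, mir-16b and mir-16c) and 3 of the miR-103/miR-107 family (mir-103, mir-107 and mir-107b). An entry is 1 miRNA named by its hairpin. The entry of mir-15a joins 2 loci, mir-15a-1 and mir-15a-2, so the 9 entries stand for 10 loci.

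A miRNA guides the silencing complex to mRNAs that pair with its seed, the short stretch near its 5′ end. The seeds of miR-15 and miR-16 are the same, and that of miR-103 and miR-107 overlaps it with a shift in register, so the families share part of their targets. In mammalian cells miR-15 and miR-16 hold back the G1 cyclins and the survival factor BCL2. A locus of both, within DLEU2, is often lost in human chronic lymphocytic leukaemia. In the mouse heart, members of the miR-15 family restrain the division of cardiomyocytes after birth. miR-103 and miR-107 are near-identical miRNAs of PANK gene introns, and in mammalian cells they target DICER1, caveolin and CDK6.

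The libraries came from wild type embryos of the AB strain, each from total RNA of 50 pooled embryos at 48 hpf. The Tbx5 morphants had received MO-Tbx5a at the 1-cell stage, at a dose of 1.5 ng by the labels; by the paper they also received MO-Tbx5b and were picked for the heartstring phenotype. The MO-Ct embryos had received a control morpholino, also 1.5 ng by the labels. By the paper its amount was equal to that of the morpholinos given to the Tbx5 morphants. Morpholinos are antisense oligomers that block an mRNA for some days, and Tbx5 is the T-box factor of the heart and the pectoral fin. As each condition is represented by 1 library, none of the differences has a replicate check and none was tested.

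The library of the Tbx5 morphants held 580312 assigned reads and that of the MO-Ct embryos 1150157, which is 1.98 times as deep. Levels are in rpm, reads per 1000000 assigned reads, and FC is the rpm of Tbx5 morphants divided by that of MO-Ct embryos. Each interval is a 95% Clopper-Pearson interval; PCR makes copies of a molecule, so an interval covers the error of counting only and sets library against library, not condition against condition. Of the 17 names fixed as markers of tissues of the whole embryo, 15 had entries above 0 in both libraries. The summed rpm of their groups had ratios from 0.527 for red blood cells (94.8 rpm in Tbx5 morphants and 180.0 rpm in MO-Ct embryos) to 1.15 for epithelium. The ratio for red blood cells rests on mir-451, with a FC of 0.464, while mir-144, the other marker, had a FC of 1.15 from 11 reads in Tbx5 morphants and 19 in MO-Ct embryos. Most of the rpm of epithelium is mir-203b, with a FC of 1.20. Of the 6 entries of epithelium, 2 had a FC below 1, mir-200a at 0.859 and mir-200b at 0.884, both with intervals wholly below 1. The sum for the nervous system, with a ratio of 0.910, is nearly all mir-9, while mir-124 had a FC of 0.683 (0.574 to 0.810). Muscle had a ratio of 1.07, and of its 5 entries 3 had a FC below 1, the lowest mir-133b at 0.640 (0.538 to 0.757). Of these 5, the interval lay wholly below 1 in 1 and wholly above 1 in 2. The part of such tissue differences in the values below was not tested, and in whole embryos fewer cells of a type and less miRNA per cell cannot be told apart.

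All 9 members were listed above 0 in both libraries and all 9 had a lower rpm in Tbx5 morphants. Together they took 5325 rpm in Tbx5 morphants and 6573 rpm in MO-Ct embryos, which is 0.532% of the assigned reads of Tbx5 morphants and 0.657% of those of MO-Ct embryos. mir-103 was the most abundant member and mir-107b the least, with a 171-fold span between them in Tbx5 morphants and a 63.3-fold span in MO-Ct embryos. The order of the members by rpm was the same in both libraries, except that mir-15b and mir-16a had equal levels in Tbx5 morphants. Neighbours in that order whose intervals overlapped were mir-15b, mir-16a, mir-15a and mir-15c in Tbx5 morphants. In MO-Ct embryos they were mir-15b with mir-16a, mir-15a with mir-15c, and mir-107 with mir-107b. Mature miRNAs are of nearly equal length, so rpm needs no length scaling here. Whether the library preparation captured all of them equally well was not tested, so the order is one of reads.

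**Figure D1:**
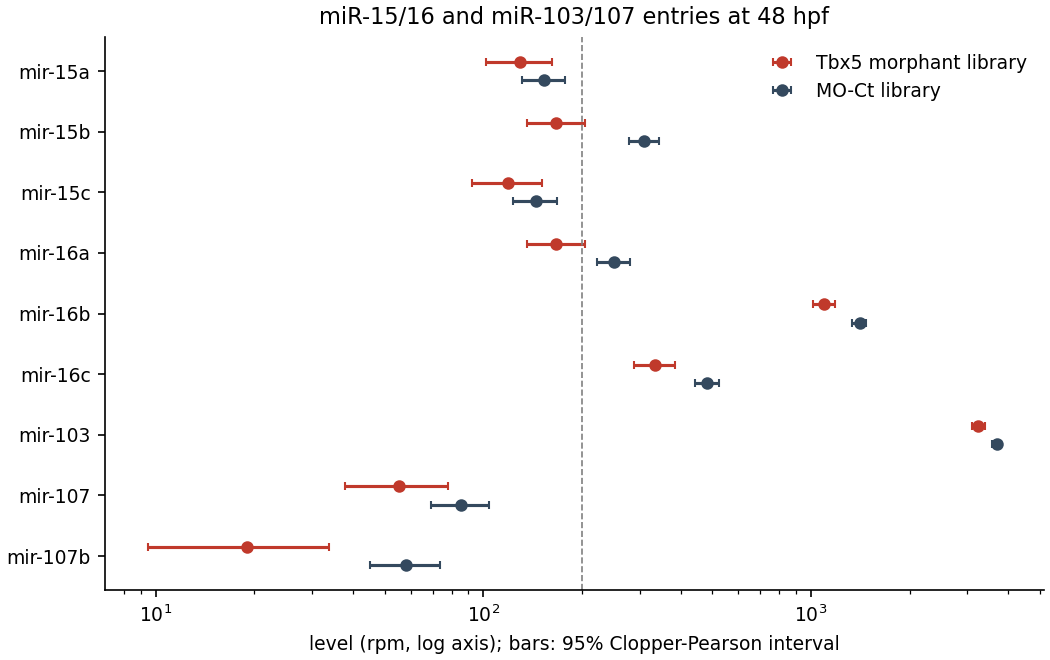
Level of each member in rpm, on a log axis, in Tbx5 morphants (red) and MO-Ct embryos (dark blue), with 95% Clopper-Pearson intervals; the dashed line marks 200 rpm. In each of the 9 entries the red point lies left of the dark blue one, and the intervals of mir-15b, mir-16a, mir-16b, mir-16c, mir-103 and mir-107b do not overlap between the libraries.

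Names and neighbours of the loci were taken from RefSeq genes of the assembly GRCz12tu, where all 10 member loci matched 1 gene each. The 7 loci of the miR-15/16 family lie in 4 clusters. mir-15a-1 stands beside mir-16b inside a long non-coding RNA gene of unknown role next to spryd7a. mir-15a-2 stands beside mir-16c, spanned by both trim13 and LOC141376149 and next to spryd7b. mir-15c stands beside mir-16a within smc4, the gene of a condensin subunit that compacts chromosomes; the annotated span of kpna4 also covers them, and ift80 and trim59 flank them. mir-15b has no mir-16 beside it, and its neighbour is mir-457a, within the same uncharacterised gene, si:ch211-196f2.3. miR-457 is a fish miRNA with the seed of the miR-15/16 family, and mir-457a was therefore followed as a partner although it is no member.

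The paralogous clusters of mir-15a with mir-16b and mir-16c carried most of the reads of the miR-15/16 family. mir-16b, the most abundant of the 6, had 1096 rpm in Tbx5 morphants (interval 1012 to 1185) and 1405 rpm in MO-Ct embryos (1337 to 1475). These levels stand for 636 reads of Tbx5 morphants and 1616 of MO-Ct embryos, and the FC was 0.780 (0.711 to 0.856). mir-16c had 334 rpm (289 to 385) in Tbx5 morphants and 482 rpm (442 to 523) in MO-Ct embryos, a FC of 0.694 (0.586 to 0.819). For both miRNAs the intervals of the libraries lay apart, with Tbx5 morphants lower. mir-15a, whose entry joins the loci of both clusters, had 129 rpm (102 to 162) in Tbx5 morphants and 153 rpm (131 to 177) in MO-Ct embryos. Its FC of 0.845 had an interval from 0.636 to 1.11, so a difference was not detectable at this depth, with 75 reads of Tbx5 morphants and 176 of MO-Ct embryos.

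Reads of mir-15a could not be divided between its loci, so it was set against mir-16b and mir-16c together. These had 11.1 reads per read of mir-15a in Tbx5 morphants and 12.3 in MO-Ct embryos. The FC of mir-15a divided by that of mir-16b and mir-16c was 1.11 (0.829 to 1.49, conditional exact interval of the odds ratio). That interval includes 1 and leaves room for a difference of up to 1.49-fold. The 3 entries of these clusters summed to 1560 rpm in Tbx5 morphants and 2040 rpm in MO-Ct embryos, a FC of 0.765 (0.707 to 0.826).

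The cluster within smc4 was less abundant. mir-16a had 167 rpm (136 to 204) in Tbx5 morphants and 250.4 rpm (222 to 281) in MO-Ct embryos. Its FC was 0.668 (0.525 to 0.843), from 97 reads of Tbx5 morphants and 288 of MO-Ct embryos, with no overlap between the libraries. mir-15c had 119 rpm (92.5 to 150.5) in Tbx5 morphants and 144 rpm (123 to 168) in MO-Ct embryos, a FC of 0.824 (0.613 to 1.10) whose interval includes 1. mir-16a had 1.41 reads per read of mir-15c in Tbx5 morphants and 1.73 in MO-Ct embryos. The FC of mir-15c divided by that of mir-16a was 1.23 (0.843 to 1.801), so the cluster partners were not told apart by counting error alone. Their summed FC was 0.725 (0.603 to 0.868), from 166 reads in Tbx5 morphants and 454 in MO-Ct embryos.

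mir-15b had the lowest FC of the miR-15/16 family. It had 167 rpm (136 to 204) in Tbx5 morphants, from 97 reads, and 309 rpm (277 to 342) in MO-Ct embryos, from 355 reads. The FC was 0.542 (0.428 to 0.680), and the interval reached across 0.556, the lower 1.8-fold threshold of the study. mir-457a, its neighbour, had 338 rpm in Tbx5 morphants and 463 rpm in MO-Ct embryos, a FC of 0.729 (0.616 to 0.860). The FC of mir-15b was 0.743 times that of mir-457a (0.556 to 0.989). This interval only just stays below 1, and it comes from 1 of 9 named comparisons between FC. All 36 pairs of members, some of them among the 9, were compared in the same way. No interval was adjusted for the number of comparisons. mir-457a had 2.02 reads per read of mir-15b in Tbx5 morphants and 1.50 in MO-Ct embryos.

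Against the other mir-15 entries, the FC of mir-15b was 0.641 times that of mir-15a (0.445 to 0.927) and 0.657 times that of mir-15c (0.452 to 0.959). Over all 15 pairs within the miR-15/16 family, the ratio of the FC had an interval without 1 in 3 pairs, also with no adjustment. These were mir-15b with mir-15a, mir-15c and mir-16b. The ratio of mir-15b to mir-16a, 0.811 (0.581 to 1.13), and to mir-16c, 0.780 (0.584 to 1.04), had intervals that include 1. The annotation of reads allowed mismatches, so reads of these similar miRNAs could have been divided between the letters of a name. With the letters summed, mir-15 had 415 rpm in Tbx5 morphants and 606 rpm in MO-Ct embryos, a FC of 0.685 (0.589 to 0.795). mir-16 summed to 1597 rpm in Tbx5 morphants and 2137 rpm in MO-Ct embryos, a FC of 0.747 (0.692 to 0.806). The summed mir-15 and mir-16 thus had overlapping intervals.

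mir-457b, the other fish relative, lies apart from the members between hprt1 and pabir2. It had 109 rpm in Tbx5 morphants and 95.6 rpm in MO-Ct embryos, a FC of 1.14 (0.819 to 1.56). The FC of mir-457a was 0.642 times that of mir-457b (0.447 to 0.929), an interval without 1 before any adjustment for the number of comparisons.

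**Figure D2:**
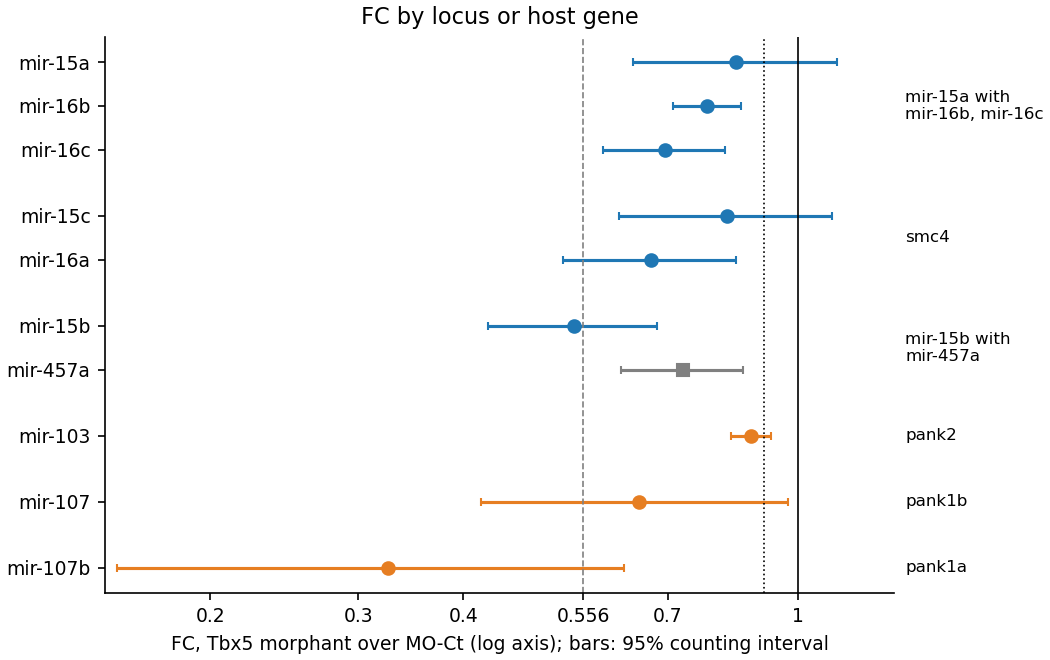
FC of each member and of mir-457a (grey square), Tbx5 morphant over MO-Ct, on a log axis with 95% counting intervals, grouped by locus cluster or by the gene that spans the locus; the solid line marks 1, the dotted line the median FC of 0.910 of well measured entries and the dashed line 0.556. All 9 members lie left of 1, mir-15b and mir-107b lie left of the dashed line, and the intervals of mir-15a and mir-15c cross 1.

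The make-up of the miR-15/16 family was compared as shares of its own reads, which do not depend on the other miRNAs of the library. The family had 1168 reads in Tbx5 morphants and 3155 in MO-Ct embryos. mir-16b made up 54.5% (51.5 to 57.3) of the family in Tbx5 morphants and 51.2% (49.5 to 53.0) in MO-Ct embryos. The mir-16 entries together made up 79.4% (76.9 to 81.7) in Tbx5 morphants and 77.9% (76.4 to 79.3) in MO-Ct embryos, with overlapping intervals. mir-15b was the 1 entry whose share had intervals that lay apart, 8.30% (6.79 to 10.04) in Tbx5 morphants and 11.3% (10.2 to 12.4) in MO-Ct embryos. The shares of mir-15a, mir-15c, mir-16a and mir-16c had overlapping intervals between the libraries.

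The miR-103/miR-107 loci lie singly, each within a PANK gene, whose product, pantothenate kinase, starts the synthesis of coenzyme A. mir-103 is spanned by pank2, mir-107 by pank1b and mir-107b by pank1a. No other miRNA gene lies within 10 kb of any of them.

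mir-103 had 3238 rpm (3093 to 3387) in Tbx5 morphants and 3686 rpm (3577 to 3799) in MO-Ct embryos, or 1879 reads of Tbx5 morphants and 4240 of MO-Ct embryos. It ranked 32 of the 173 entries in Tbx5 morphants and 30 in MO-Ct embryos. Its FC was 0.878 (0.831 to 0.928). The interval stayed below 1 but included 0.910, the median FC of the entries above 200 rpm in both libraries. Relative to that median mir-103 was therefore not lower beyond counting error, and of the 9 members it was the closest to 1.

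mir-107 had 55.1 rpm (37.7 to 77.8) in Tbx5 morphants and 85.2 rpm (69.2 to 104) in MO-Ct embryos, or 32 reads of Tbx5 morphants and 98 of MO-Ct embryos. The FC was 0.647 (0.420 to 0.973), and the intervals of the levels overlapped. mir-107b had 19.0 rpm (9.46 to 33.9) in Tbx5 morphants and 58.3 rpm (45.1 to 74.0) in MO-Ct embryos. Its FC of 0.325 (0.155 to 0.620) was the lowest of the 9 members, but it rests on 11 reads in Tbx5 morphants against 67 in MO-Ct embryos. The 11 reads are also the lowest value above 0 that the library of Tbx5 morphants lists, shared by 3 entries, while a further 11 entries are listed at 0 there and 0 in MO-Ct embryos. Sequences with fewer than 30 occurrences had been left out before annotation, yet 19 entries in Tbx5 morphants and 14 in MO-Ct embryos are listed above 0 with fewer than 30 reads. The filter was thus not a minimum per entry and library, and its part in the FC of mir-107b was not tested.

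Within the family mir-103 took 97.8% (97.0 to 98.4) of the reads in Tbx5 morphants and 96.3% (95.7 to 96.8) in MO-Ct embryos. mir-107 took 1.66% (1.14 to 2.34) in Tbx5 morphants and 2.22% (1.81 to 2.70) in MO-Ct embryos, with overlapping intervals. mir-107b took 0.572% (0.286 to 1.02) in Tbx5 morphants and 1.52% (1.18 to 1.93) in MO-Ct embryos, and these intervals lay apart. The FC of mir-107b was 0.370 times that of mir-103 (0.176 to 0.708), whereas that of mir-107 was 0.737 times that of mir-103 (0.476 to 1.11), which includes 1. Between mir-107b and mir-107 the ratio was 0.503 (0.214 to 1.11), so these did not differ beyond counting error.

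There were 58.7 reads of mir-103 for each read of mir-107 in Tbx5 morphants and 43.3 in MO-Ct embryos. The annotation allowed mismatches, and the division of reads between these near-identical names was not tested. mir-107 and mir-107b together had 74.1 rpm in Tbx5 morphants and 143 rpm in MO-Ct embryos, a FC of 0.517 (0.360 to 0.726).

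As families, miR-15/16 summed to 2013 rpm in Tbx5 morphants and 2743 rpm in MO-Ct embryos, a FC of 0.734 (0.686 to 0.785). miR-103/miR-107 summed to 3312 rpm in Tbx5 morphants and 3830 rpm in MO-Ct embryos, a FC of 0.865 (0.819 to 0.913). That interval includes 0.910, the median FC of the entries above 200 rpm in both libraries. The intervals of the family FC did not overlap, and the miR-15/16 family was the lower. The family values follow their most abundant entries. Without mir-103, which holds nearly all reads of its family, the FC of miR-103/miR-107 was 0.517 (0.360 to 0.726). This value was below that of miR-15/16, which itself was 0.685 (0.620 to 0.757) without mir-16b. The interval without mir-103 overlapped that of miR-15/16 with or without mir-16b, so this order was not beyond counting error. Of the 18 pairs made of 1 entry from each family, the ratio of the FC had an interval without 1 in 9, in both directions. Against mir-103 the FC of mir-15b, mir-16a, mir-16b and mir-16c was lower, with ratios from 0.617 to 0.888. Against mir-107b, which has few reads, that of mir-15a, mir-15c, mir-16a, mir-16b and mir-16c was higher, with ratios from 2.05 to 2.60. These pairs thus do not set 1 family below the other.

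The counts of members were read against all entries. A FC below 1 was found in 9 of 9 members, against 67.3% of the 162 entries above 0 in both libraries, so most entries shared this direction, and against the median of entries of like level (given further on) mir-15a and mir-15c were above 1. An interval wholly below 1 was found in 7 of 9 members, all but mir-15a and mir-15c, against 45.7% of those 162 entries. The median FC of the entries above 200 rpm in both libraries was 0.910. An interval wholly below it was found for mir-15b, mir-16a, mir-16b, mir-16c and mir-107b. The interval included 0.910 for mir-15a, mir-15c, mir-103 and mir-107. Other entries also had intervals wholly below 0.910, among them mir-17a, with a FC of 0.771 (0.733 to 0.810), and mir-20a, with 0.713 (0.692 to 0.735). The matching share of all entries was not computed, so this is not read as particular to the members. An interval wholly above 1 was found in 0 of 9 members, against 29 of the 162 entries above 0 in both libraries. The median log2 FC of the 9 members was -0.53, a FC of 0.694, while that of the 162 entries was -0.16, a FC of 0.897. Entries are not replicates, and near-identical members or cluster partners share their source, so these counts describe the libraries.

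The thresholds of the study were 1.8-fold for the FC and 200 rpm for the level. With the minimum in MO-Ct embryos, 1 of 9 members passed, mir-15b, against 4.05% of the 173 entries changed in either direction, which were 7 lower and 0 higher in Tbx5 morphants. The study's legend sets the minimum in the Tbx5 depleted embryos, where mir-15b had 167 rpm and was under it; by that rule 0 of 9 members passed, against 2.31% of entries in either direction, 3 lower and 1 higher. Without a minimum mir-107b passed as well, giving 2 of 9 members, both lower, against 11.7% of the 162 entries in either direction, 16 lower and 3 higher. None of the 9 intervals lay wholly below the 1.8-fold threshold. Such intervals were uncommon outside the members too, seen for mir-219 (upper bound 0.410), mir-190b (0.447) and mir-7b (0.459). Their absence among the members is thus not particular to them. The numbers of lower and higher miRNAs that the paper reports were not reached by any of these rules. The paper followed up miR-190b and miR-130a, which were under 200 rpm in both libraries. mir-190b had 27.6 rpm in Tbx5 morphants and 104 rpm in MO-Ct embryos, and mir-130a had 65.5 rpm and 141 rpm. The paper's text does not name miR-15b, and nothing about mir-15b is read from that absence.

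**Figure D3:**
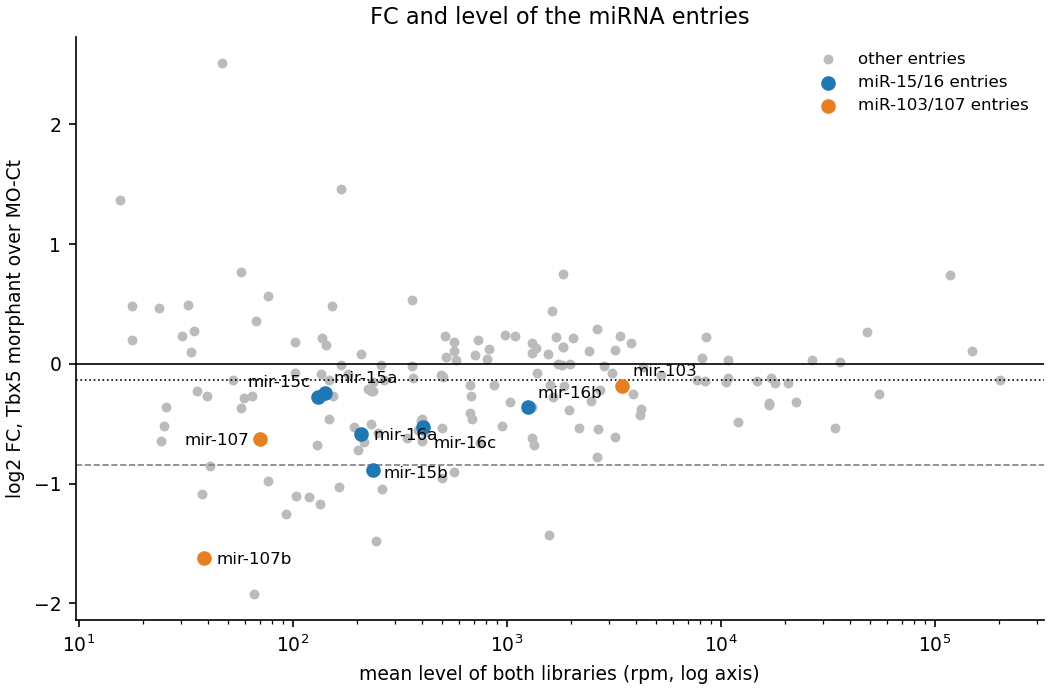
log2 FC, Tbx5 morphant over MO-Ct, of the 162 entries above 0 in both libraries against their mean level in rpm (log axis), with the miR-15/16 entries in blue, the miR-103/miR-107 entries in orange and the others in grey; the solid line marks 0, the dotted line the log2 of 0.910 and the dashed line that of 0.556. The members lie below the dotted line at every level, among grey points of similar level that mostly lie below 0 as well.

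The median FC differed between bands of level in these libraries, but a link between level and FC was not tested. Of the 48 entries with a mean of 100 to 500 rpm, 41 (85.4%) had a FC below 1, and their median FC was 0.776. These include mir-15a, mir-15b, mir-15c, mir-16a and mir-16c. Of the 86 entries with a mean of 500 rpm or more, 60.5% had a FC below 1, with a median of 0.925, and mir-16b and mir-103 are among these. The 28 entries under 100 rpm and above 0 in both libraries, with mir-107 and mir-107b, had a median of 0.844. Of these, 57.1% had a FC below 1. The 11 entries at 0 in Tbx5 morphants, all with a mean under 100 rpm, were left out, and counting them would lower this median.

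Relative to the median of their level band mir-15a had a FC of 1.09 and mir-15c of 1.06, both now above 1. The others stayed below 1, at 0.698 for mir-15b, 0.860 for mir-16a, 0.843 for mir-16b, 0.894 for mir-16c, 0.9496 for mir-103, 0.767 for mir-107 and 0.386 for mir-107b. mir-15b was then within 1.8-fold, and mir-107b was beyond it with under 200 rpm. The values of mir-107 and mir-107b would be higher if the entries at 0 in Tbx5 morphants were counted in their band. This comparison with the level bands was chosen after seeing the data.

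**Figure D4:**
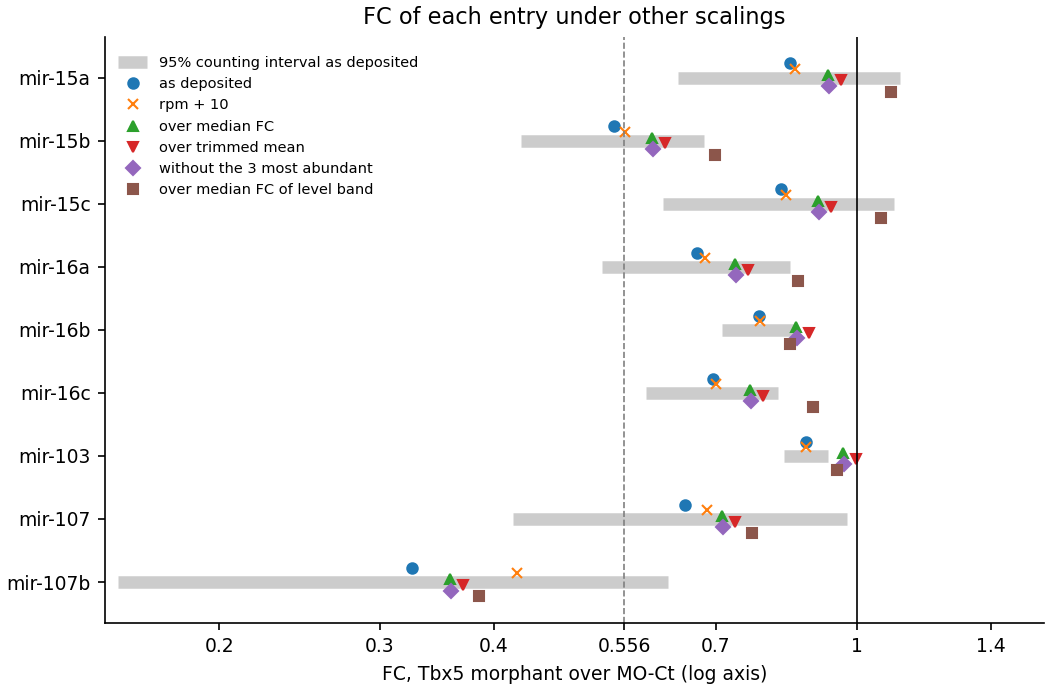
FC of each member, Tbx5 morphant over MO-Ct, on a log axis, as deposited and under 5 other scalings (symbols), over the 95% counting interval of the deposited value (grey bar); the solid line marks 1 and the dashed line 0.556. mir-15b lies left of the dashed line as deposited, while only the level bands bring a member, mir-15a or mir-15c, to the right of 1.

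The entries most like each member were taken as those nearest in the plane of the log2 rpm of the 2 libraries. With 2 libraries this likeness joins level and FC and says nothing more. For mir-15b these were mir-101b, with 171 rpm in Tbx5 morphants and 352 rpm in MO-Ct embryos, and mir-18b, with 167 rpm in Tbx5 morphants and 263 rpm in MO-Ct embryos. mir-18b was also the nearest to mir-16a, followed by mir-19d. mir-16c lay nearest to mir-96 and mir-457a, mir-16b to mir-218a and mir-18a, and mir-103 to mir-20b and mir-137. mir-15a lay nearest to mir-31 and mir-194a, and mir-15c to mir-15a and mir-194a. The nearest to mir-107 were mir-301b and mir-145. mir-107b had the farthest neighbours, mir-190 at a distance of 0.39 and mir-150 at 0.64 log2 units, against 0.05 for mir-16c and mir-96.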

How the data were processed

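Small RNA libraries, 1 per condition, were sequenced on an Illumina GAIIx. The authors trimmed the reads, dropped rare sequences, annotated the rest to the zebrafish miRBase reference with mismatches allowed, and deposited rpm values, reads per 1000000 assigned reads; each library sums to 1000000 rpm. The rpm values needed no genome build, while the names and neighbours of the loci were taken from the assembly named above. Reads were recovered by trying totals from 50000 to 3000000; at the smallest that fitted, all 173 values of each library were whole reads within 0.005 rpm. A count of 3 reads, the limit for a 0 reached by sampling alone, is 5.17 rpm in Tbx5 morphants and 2.61 rpm in MO-Ct embryos. The lowest count listed above 0 was 11 reads in Tbx5 morphants and 6 in MO-Ct embryos. Rare sequences had been dropped, so the limit of 3 reads need not hold for an entry listed at 0.

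FC is the ratio of rpm with no pseudocount. Intervals are 95% Clopper-Pearson intervals, and those of a ratio of FC are conditional exact intervals of the odds ratio. No test was made, as each condition has 1 library. Members, lists, the naming rule (all members, their cluster partners and miR-457, the 2 nearest entries) and thresholds were chosen with earlier results of these data known. A list of relatives by seed sequence was planned but not made, as no sequences were used here; miR-457 was taken by name in its place. Alternatives were other rpm minimums (100, 500, none, or in the other library) and FC thresholds (1.5, 2), pseudocounts of 1 and 10, rescaling by the median FC, by a trimmed mean of log ratios (30% and 5% trimmed) or without the 3 most abundant entries, and, added later, level bands. The steps were tested on simulated data. Python 3.11.15, NumPy 2.4.6, SciPy 1.17.1 and Matplotlib 3.10.9 were used.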

Additional observations from a re-analysis of the deposited data

How the results depend on the processing

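No paired analysis was possible because there is a lone library on each side, which also leaves no replicate to omit. Except where the setting itself removes an entry, the cause of a change was not tested. The count of 1 member past the thresholds, mir-15b, became 0 with the minimum in Tbx5 morphants or in both, with more than 500 rpm, a FC of at least 2, a pseudocount of 10, either rescaling, without the 3 most abundant entries and with level bands, and 2 with no minimum; it stayed at 1 in the other 4 settings. The median log2 FC of the members, -0.53, was -0.22 with level bands and ran from -0.34 to -0.53 otherwise. The FC of the summed miR-15/16 family, 0.734, was 0.806 with the median FC, 0.833 with the trimmed mean, 0.809 without the 3 most abundant entries, 0.793 with level bands and 0.685 without mir-16b. That of miR-103/miR-107, 0.865, was 0.9504 with the median FC, 0.982 with the trimmed mean, 0.953 without the 3 most abundant entries, 0.935 with level bands and 0.517 without mir-103. A pseudocount moved neither family beyond its counting interval. Of 63 alternatives for single members, 11 left the counting interval and 52 lay inside it, of which 2 turned round, mir-15a at 1.09 and mir-15c at 1.06 with level bands. Level bands and the omission of the leading entry were chosen after seeing the data. A common rescaling cannot change the order of the FC. Depth limited mir-107b most, at 11 reads in Tbx5 morphants.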

Other observations

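Other miRNAs with known roles in the cell cycle were counted by a list of names (among them mir-34, let-7, mir-17, mir-19, mir-26 and mir-221). Of their 29 entries 27 were above 0 in both libraries. A FC below 1 was found in 21 of the 27, against 67.3% of all such entries, and an interval wholly below 1 in 15, against 45.7%. An interval wholly above 1 was found in 4 of the 27, against 29 of the 162 entries above 0 in both libraries. Their median FC was 0.771, between that of the 9 members, 0.694, and that of the 162 entries, 0.897. Past both thresholds were 2 of the 29, mir-19a and let-7g, both lower in Tbx5 morphants, against 4.05% of all entries. With the minimum in Tbx5 morphants 2 passed as well, mir-19a as lower and mir-34, with a FC of 2.75, as higher, against 2.31% of all entries. The list was chosen with earlier results known, and it shares clusters and near-identical names within itself.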
